A study of Xiphophorus maculatus with 65 samples.

Results

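Messenger RNA levels of 3 lipid transport genes, *apob*, *apoc1* and *fabp2*, were described in liver and skin of the platyfish *Xiphophorus maculatus*. The genes were taken by their NCBI symbols from the 27242 genes of the deposited count table, and each symbol matched 1 gene. *apob* (gene ID 102226191) lies on chromosome 19 at 399075–424398 and has 2 RefSeq transcripts, *apoc1* (102231760) lies on chromosome 3 at 6812460–6813603 with 1 transcript, and *fabp2* (102229169) lies on chromosome 5 at 15401079–15406497 with 2 transcripts, by RefSeq's table for X_maculatus-5.0-male. The study sequenced RNA of the inbred strains Jp163B (JpB) and Jp163A (JpA) to compare their basal expression. All fish were males. The sample names mark most libraries as sham, as given no UV dose, or as 0 min or 0pt. Those of the 16 JpA skin libraries of 24 months give an hour of the day and no treatment. The labels carry 5 calendar years, which are given here by their order in time, from the first to the fifth label year. JpB gave 4 liver libraries of fish aged 9 months, all of the fifth label year, and 30 skin libraries of fish aged 9 to 12 months (1 library of the first label year, 13 of the second, 8 of the third, 4 of the fourth and 4 of the fifth). JpA gave 6 liver libraries, 4 of fish aged 20 months of the fourth label year and 2 of fish aged 13 months of the fifth, and 25 skin libraries, of which 21 were of the fourth label year (5 at 20 months and 16 at 24 months, the last with an hour of sacrifice) and 4 were of the fifth (13 months). No age and no label date held fish of both strains, and these cannot be told apart from strain in any comparison.

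In vertebrates, ApoB is the large structural protein around which the liver and the intestine assemble triglyceride-rich lipoproteins. On LDL it is the ligand for uptake through the LDL receptor. ApoC-I is a small exchangeable apolipoprotein that sits on triglyceride-rich lipoproteins and on HDL and slows the clearance of the former. In mammals it is made mainly by the liver and also by macrophages. FABP2 is the intestinal fatty acid binding protein, which in mammals carries long-chain fatty acids through the cytoplasm of the absorptive cells of the gut.

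The JpB livers held 83960180 to 97639817 counts and the JpA livers 29871688 to 77377846, while JpB skin held 26843901 to 98104664 and JpA skin 27235335 to 77841034. Several skin libraries carried the same fish label (the code of letters and numbers in the sample name). In 4 pairs from JpB skin, chi-square over its degrees of freedom was 2.01 to 2.78, above sampling noise but under the limit of 3. Each of these pairs was summed, which left 26 JpB and 25 JpA skin samples. These carry 23 fish labels in each strain, so that some samples counted as separate share a label. Liver markers set the tissues apart: 25 matched hepatocyte genes summed to 72922 to 76866 CPM (the count divided by the library total, on the usual scale of this unit) in JpB livers and to 66901 to 88608 CPM in JpA livers, against 519 to 1022 CPM in JpB skin and 317 to 931 CPM in JpA skin. Of the skin sums, with medians of 671 CPM in JpB and 512 CPM in JpA, *rbp4* alone had medians of 462 and 353 CPM. Markers of skin were not measured. JpA livers 5 and 6 carry JpB in the title and JpA in the strain field, and were kept as JpA. Nothing in the labels says that libraries with separate fish labels were extracted separately, so that p-values measure the spread between these libraries.

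Of the 3 genes, *fabp2* passed the test between the strains in liver. In the JpB livers it had 223, 195, 236 and 286 CPM, and in the JpA livers it had 27.1 CPM at the lowest, 40.3 CPM at the median and 89.0 CPM at the highest. Every JpB liver lay above every JpA liver, as the plot of liver levels shows. The mean was 235 ± 37.9 CPM in JpB (SD, n = 4) and 49.3 ± 24.6 CPM in JpA (SD, n = 6). The fitted difference, JpB over JpA, was 2.58 on the log2 scale (SE 0.37; 95% interval 1.86 to 3.31), a fold of 5.99, with an adjusted p of 0.00591 by edgeR's quasi-likelihood test. It ranked 55th by p among the 16818 genes tested, of which 8.85% passed the same threshold, 3.94% with the higher level in JpB, and 14.4% had groups that did not overlap. In bulk tissue, more cells of a type and more RNA per cell cannot be told apart.

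*apoc1* had 9389, 9349, 11027 and 10808 CPM in the JpB livers, and 3593, 8037 and 8749 CPM at the lowest, the median and the highest JpA liver. The groups did not overlap, yet the gap between the highest JpA liver and the lowest JpB liver was small. The means were 10143 ± 899 CPM in JpB and 6882 ± 2349 CPM in JpA (SD, n = 4 and 6). The fitted difference was 0.85 (SE 0.35; 95% interval 0.15 to 1.55), and it did not pass the threshold across all genes (p = 0.0348, adjusted p = 0.134, edgeR). JpA livers 2 and 3, both of fish aged 20 months, had the lowest levels (3593 and 4214 CPM). JpA livers 1 and 4, of the same age, had the highest levels of the JpA livers (8662 and 8749 CPM).

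*apob* had 618, 540, 589 and 627 CPM in the JpB livers, and 575, 742 and 872 CPM at the lowest, the median and the highest JpA liver. The groups overlapped. The means were 593 ± 38.9 CPM in JpB and 722 ± 103 CPM in JpA (SD, n = 4 and 6), whereas the fitted difference was 0.05 (SE 0.22; 95% interval −0.38 to 0.49; adjusted p = 0.887, edgeR). The sign depended on the scaling. TMM factors were 0.772 to 0.936 in the JpB livers and 0.887 to 1.70 in the JpA livers, and without these factors the median of all genes moved to −0.47, against −0.08 with them. The *apob* difference without scaling was −0.28 (adjusted p = 0.178), while those of *fabp2* (2.26, adjusted p = 0.0075) and *apoc1* (0.56) kept their direction.

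**Figure D1:**
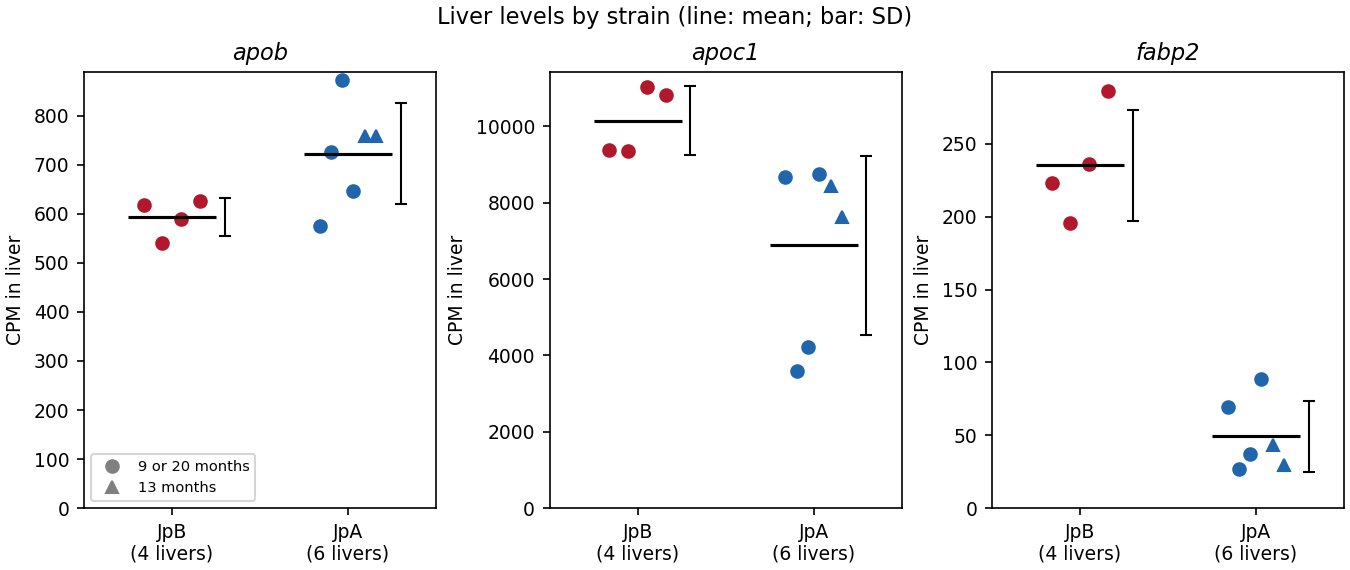
Levels of *apob*, *apoc1* and *fabp2* in each liver library, in CPM, for JpB (left, n = 4) and JpA (right, n = 6), with the mean and SD; triangles are fish of 13 months. The JpB livers lie at 195 to 286 CPM of *fabp2*, above all JpA livers (27.1 to 89.0 CPM), whereas the groups overlap for *apob*.

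The *fabp2* call was also made in smaller sets of livers. In the livers of the fifth label year (4 JpB of 9 months, 2 JpA of 13 months) *fabp2* differed by 2.80 (adjusted p = 0.00011), *apoc1* by 0.44 (adjusted p = 0.0599) and *apob* by −0.25. Without JpA livers 5 and 6, whose titles conflict with their strain field, *fabp2* differed by 2.48 (adjusted p = 0.021), with the JpA livers then all of 20 months and of the fourth label year. Markers of the absorptive cells of the gut, in which FABP2 is known to act, were measured beside it. The 16 matched enterocyte genes summed to 426 to 707 CPM in JpB livers and to 444 to 884 CPM in JpA livers, mostly from *slc2a2* and *tm4sf4*, which liver also expresses. Medians were 34.2 CPM in JpB and 29.3 CPM in JpA livers for *cdh17*, and 28.4 and 30.8 CPM for *treh*. *anpep*, *slc13a1*, *mep1b*, *lct* and *cdx1* had a median of 0 in the JpB livers. In the JpA livers *slc13a1*, *mep1b* and *cdx1* had a median of 0. Of the 10 enterocyte genes tested in liver, 2 were lower in JpB (20%, against 8.85% of all genes called) and none was higher. These were *slc5a9* (−1.02, adjusted p = 0.0228, edgeR) and *anpep* (−6.91, adjusted p = 0.0425, edgeR). The median of *anpep* in the JpA livers was only 0.209 CPM.

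Other genes of lipid handling were called in both directions in the liver. The share called was 11.1% of lipoprotein genes, 30% of genes of fatty acid binding and activation and 26.3% of triglyceride genes, against 8.85% of all genes, and the first of these was near that of all genes. The lists of lipoprotein, fatty acid, triglyceride and regulator genes leave out *apob*, *apoc1* and *fabp2*. Of 27 lipoprotein genes tested, 1 was higher in JpB and 2 were lower, with a median difference of 0.31 against −0.08 over all genes. These were the scavenger receptor genes *stab1* (0.77, adjusted p = 0.0324) and *stab2* (−1.20, adjusted p = 0.00839) and the endothelial lipase gene *lipg* (−1.95, adjusted p = 0.0279). Of 10 genes of fatty acid binding and activation, 1 was higher, the fatty acid transporter gene *slc27a1* (1.12, adjusted p = 0.0316), and 2 were lower, the acyl-CoA synthetase genes *acsl4* (−1.68, adjusted p = 0.0324) and *acsbg2* (−1.84, adjusted p = 0.0422). Of 19 triglyceride genes, 3 were higher, among them *dgat2*, whose enzyme makes the last step of triglyceride synthesis (0.99, adjusted p = 0.00959), and *agpat5* (1.32, adjusted p = 0.0432). The 2 that were lower were the phosphatidate phosphatase gene *lpin1* (−2.30, adjusted p = 0.0357) and the lipase coactivator gene *abhd5* (−0.96, adjusted p = 0.0446). None of 25 hepatocyte genes and none of 24 regulator genes passed in edgeR. At an unadjusted p under 0.05 these were 4 hepatocyte and 8 regulator genes, and DESeq2 called 1 and 4.

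In skin, *apob* passed the test between the strains over all samples. It had 1.89, 3.48 and 10.1 CPM at the lowest, the median and the highest JpB skin sample, and 0.299, 2.13 and 3.13 CPM in JpA. The groups overlapped, but the median JpB sample lay above the highest JpA sample. The means were 3.81 ± 1.60 CPM in JpB (SD, n = 26) and 2.04 ± 0.662 CPM in JpA (SD, n = 25). The fitted difference was 0.95 (SE 0.14; 95% interval 0.68 to 1.22), a fold of 1.93, with an adjusted p of 1.37e-06 (edgeR), and the area under the ROC curve was 0.965. It ranked 139th among 20028 genes, of which 25.4% passed the threshold and 13.2% were higher in JpB. Under the 3 limits of the study (absolute log2 fold of at least 1, adjusted p under 0.05, ROC area of at least 0.8), which 1.56% of genes met, *apob* missed the limit on fold. With all libraries of a fish label summed (46 samples) the difference was 0.91 (adjusted p = 2.56e-06).

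*apoc1* had 3.95, 14.0 and 49.3 CPM at the lowest, the median and the highest JpB skin sample, and 4.41, 11.7 and 44.2 CPM in JpA. Both ranges spanned about the same levels. The difference was 0.56 (SE 0.24; 95% interval 0.08 to 1.04; adjusted p = 0.0806, edgeR; ROC area 0.666). *fabp2* had 0.207, 0.600 and 1.17 CPM at the lowest, the median and the highest JpB skin sample, and 0.0329, 0.359 and 2.46 CPM in JpA. The lowest and the highest sample were both JpA. Counts of *fabp2* were small, at 14 to 115 per JpB library and 2 to 74 per JpA library. Its difference was 0.28 (SE 0.26; 95% interval −0.24 to 0.79; adjusted p = 0.459, edgeR; ROC area 0.709). The plot of skin levels shows all samples.

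**Figure D2:**
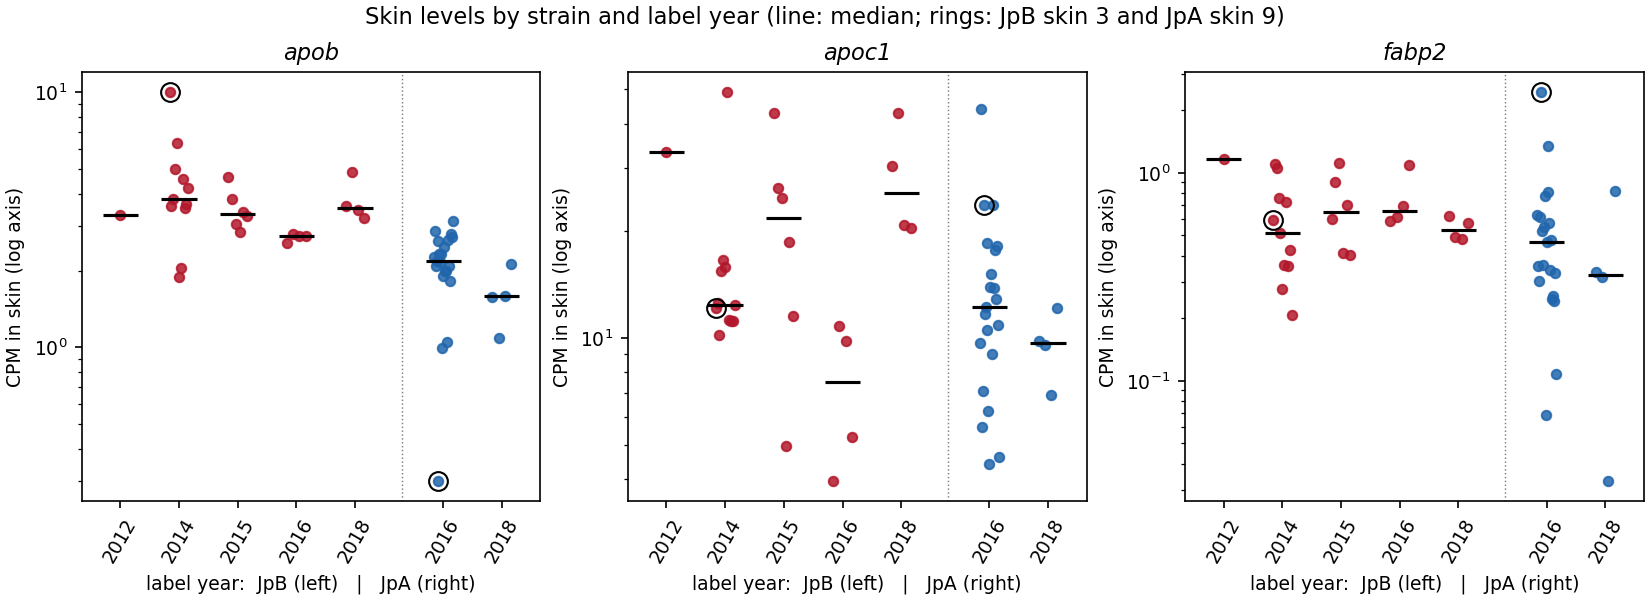
Levels of *apob*, *apoc1* and *fabp2* in each skin sample, in CPM on a log axis, for JpB (left, n = 26) and JpA (right, n = 25), by label year (in order from the first to the fifth for JpB, the fourth and the fifth for JpA), with a line at the median of each year and rings around JpB skin 3 and JpA skin 9. Over all years the *apob* medians are 3.48 CPM in JpB and 2.13 CPM in JpA. JpA skin 9 has the lowest *apob* (0.299 CPM) and the highest *fabp2* (2.46 CPM).

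A single library from each strain stood apart in *apob*, and the JpA library also in *fabp2*. JpA skin 9, of 24 months and hour 17, had 9 counts of *apob* (0.299 CPM, 95% Poisson interval 0.137 to 0.567) and 74 counts of *fabp2* (2.46 CPM, 1.93 to 3.08), beyond all other JpA skin samples in both. JpB skin 3 had 10.1 CPM of *apob* (8.89 to 11.3), against 3.60, 3.50 and 4.14 CPM in JpB skin 4, 5 and 6, which carry the same fish label. These Poisson intervals cover counting error only. Over the whole table JpB skin 3 differed from the other 3 libraries of its fish label by 485 to 555 (chi-square over its degrees of freedom), whereas those differed among themselves by 2.12 to 13.8. Without JpA skin 9, *fabp2* passed the threshold in skin (0.59, adjusted p = 0.0397), and so did *apoc1* (0.65, adjusted p = 0.0377). Without both libraries, the differences were 0.82 for *apob* (adjusted p = 3.4e-07), 0.68 for *apoc1* (adjusted p = 0.0336) and 0.60 for *fabp2* (adjusted p = 0.0399). For *apoc1* other libraries were highest, and these stayed in the fits just given. JpB skin 12 had 49.3 CPM, against 16.5 CPM in the next sample of the second label year. JpA skin 6 had 44.2 CPM, against 23.7 CPM in the next JpA sample.

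The strains were next compared within label years, since JpB skin was collected over more years than JpA skin. In the fifth label year, the *apob* levels were 3.58, 4.87, 3.45 and 3.23 CPM in JpB and 1.58, 1.09, 1.60 and 2.13 CPM in JpA. In the same libraries *apoc1* had 30.5, 42.9, 20.8 and 20.3 CPM in JpB and 9.80, 9.55, 6.91 and 12.2 CPM in JpA. For both genes every JpB library lay above every JpA library, which held for 24.1% of all genes. The difference was 1.07 for *apob* (SE 0.25; 95% interval 0.58 to 1.57; adjusted p = 0.0266, edgeR) and 1.43 for *apoc1* (SE 0.26; 95% interval 0.91 to 1.95; adjusted p = 0.0116, edgeR), where 12.8% of genes passed the threshold and 6.31% were higher in JpB. The call of *apob* was lost without any of the 4 JpB libraries in turn, with adjusted p up to 0.0842, and that of *apoc1* held without any 1 library (0.0131 to 0.0347). *fabp2* had 0.620, 0.494, 0.480 and 0.571 CPM in JpB and 0.333, 0.315, 0.0329 and 0.822 CPM in JpA. The groups overlapped, and the difference was 0.38 (95% interval −0.76 to 1.53; adjusted p = 0.682, edgeR).

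Hepatocyte genes moved in the same libraries. Of 25 hepatocyte genes tested in skin of the fifth label year, 16 were called higher in JpB and none lower, with a median difference of 2.84. Over all genes 12.8% were called and 6.31% were higher in JpB. Genes that are nearly silent in skin were summed to follow liver RNA. These were 16 hepatocyte genes whose median over all skin libraries was under 0.1% of their median over all livers, both strains together, chosen after their values were seen (*fgg*, *c8b*, *c8a*, *c9*, *kng1*, *agxt*, *serpinc1*, *c5*, *serpind1*, *fgb*, *plg*, *itih2*, *habp2*, *tdo2*, *cpb2* and *f2*, which encode fibrinogen, complement and coagulation proteins, protease inhibitors and liver enzymes). They are the same 16 genes that were called higher in JpB, so their sum repeats that result. None of the other 9 hepatocyte genes passed, with differences from −0.58 (*hamp*) to 0.72 (*hao1*). The sum of the 16 genes was 56.2 to 117 CPM in the 4 JpB libraries and 2.99 to 7.04 CPM in the 4 JpA libraries of the fifth label year. Their part in these results was not tested apart from strain: with the mean of these genes as a covariate only 2 genes of the whole table passed, and the differences were 1.57 for *apob* (adjusted p = 0.513) and 0.77 for *apoc1* (adjusted p = 0.758).

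In the fourth label year, *apob* had 2.57, 2.77, 2.74 and 2.72 CPM in JpB skin and 0.299, 2.18 and 3.13 CPM at the lowest, the median and the highest of 21 JpA libraries. *apoc1* had 3.95, 10.8, 9.77 and 5.26 CPM in JpB and 4.41, 12.2 and 44.2 CPM at the lowest, the median and the highest JpA library. *fabp2* had 0.585, 0.611, 0.695 and 1.09 CPM in JpB and 0.0685, 0.464 and 2.46 CPM at the lowest, the median and the highest JpA library. All 3 genes overlapped between the strains. The differences were 0.36 for *apob* (SE 0.26, adjusted p = 0.415), −0.93 for *apoc1* (SE 0.46, adjusted p = 0.225) and 0.33 for *fabp2* (SE 0.55, adjusted p = 0.763), and 3.84% of genes passed in edgeR. Against the JpA fish of 20 months alone, *fabp2* differed by 1.84 (adjusted p = 0.0437). Those JpA libraries had 2 to 9 counts of *fabp2*. JpA skin 22 and 23 share a fish label, as do JpA skin 24 and 25, and each was counted as a separate sample. The liver-only genes summed to 3.99 to 14.1 CPM in the JpB libraries and to 2.67 to 51.7 CPM in the JpA libraries of the fourth label year. None of 23 hepatocyte genes passed in edgeR (4 at an unadjusted p under 0.05, 1 called by DESeq2), and their median difference was −0.52.

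With both years in 1 fit and year as a covariate (33 samples), the differences were 0.65 for *apob* (adjusted p = 0.0400), 0.06 for *apoc1* (adjusted p = 0.943) and 0.36 for *fabp2* (adjusted p = 0.601).

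The difference between the strains was larger in the fifth label year than in the fourth by 2.37 for *apoc1* (SE 0.67), by 0.74 for *apob* (SE 0.42) and by 0.08 for *fabp2* (SE 0.90). In the test of this change, which 1.31% of genes passed, *apoc1* had p = 0.00125 and adjusted p = 0.0591 by edgeR and an adjusted p of 0.0152 by DESeq2. *apob* (adjusted p = 0.356) and *fabp2* (adjusted p = 0.978) did not pass. Of 24 hepatocyte genes, 8 passed, all toward a higher JpB level in the fifth label year. The plot of strain differences sets the comparisons side by side.

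**Figure D3:**
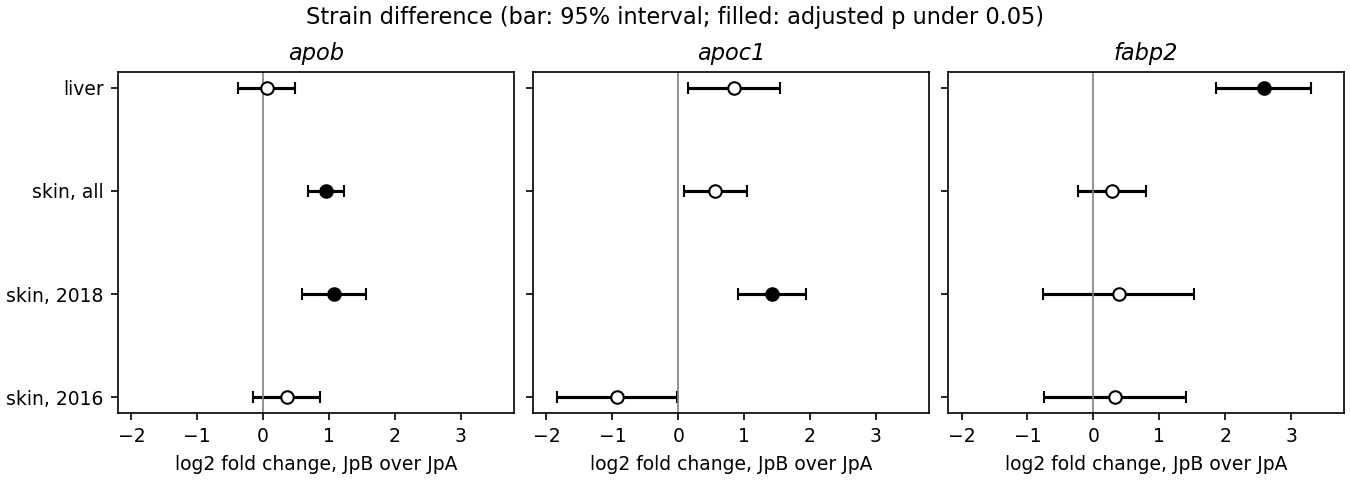
Differences between the strains (log2, JpB over JpA) of *apob*, *apoc1* and *fabp2* in liver, in all skin samples and in skin of the fifth and of the fourth label year, with 95% intervals from the SE and filled points where the adjusted p is under 0.05. *fabp2* stands at 2.58 in liver and 0.28 in skin, while *apoc1* stands at 1.43 in skin of the fifth label year and −0.93 in skin of the fourth.

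All 3 genes were far higher in liver than in skin of both strains. In JpB (4 livers and 4 skin libraries, all of 9 months and the fifth label year) the liver excess was 9.49 for *apob* (SE 0.23, fold 720, adjusted p = 1.06e-10), 10.66 for *apoc1* (SE 0.41, adjusted p = 1.44e-09) and 10.96 for *fabp2* (SE 0.21, adjusted p = 6.05e-11). In JpA fish of 20 months (4 livers and 5 skin libraries, all of the fourth label year) it was 9.94 for *apob* (SE 0.45, fold 981, adjusted p = 1.31e-07), 10.98 for *apoc1* (SE 0.75, adjusted p = 1.04e-06) and 9.82 for *fabp2* (SE 0.66, fold 906, adjusted p = 9e-07). No liver overlapped with skin, which held for 80.3% of all genes in JpB and 49.2% in JpA, and 83.4% and 56% of genes passed the threshold in either direction. Without scaling beyond the library totals, the median of all genes fell to −2.49 in JpB, against −0.29 with TMM, and to −1.76 in JpA, against −0.16. On that scale the smallest liver excess among the 3 genes was 7.30, that of *apob* in JpB. The skin libraries of these comparisons held 56.2 to 117 CPM of liver-only genes in JpB and 5.32 to 51.7 CPM in JpA. The part of liver RNA in the size of the liver excess was not tested.

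The strain difference of *fabp2* was larger in liver than in skin by 2.41 (SE 0.55; 95% interval 1.33 to 3.49; adjusted p = 0.00137 by edgeR), in a test of tissue by strain that 19.8% of genes passed. That of *apob* was smaller in liver by −0.77 (SE 0.33), which did not pass with TMM (adjusted p = 0.0879) and did pass without scaling (−1.18, adjusted p = 0.00978) and with DESeq2 (−0.85, adjusted p = 0.0412). For *apoc1* the 2 tissues differed by 0.40 (SE 0.60, adjusted p = 0.675). This fit treated liver and skin of the same fish label as independent, which concerns 5 fish labels. It also set skin of all label years against livers of the fourth and the fifth, with the JpB livers of the fifth only. Among genes of fatty acid binding and activation, 6 of 14 passed the same test, 2 toward a larger JpB excess in liver (*slc27a1*, 1.16, and the acyl-CoA binding protein gene *dbi*, 1.05) and 4 the other way, among them the acyl-CoA synthetase genes *acsl3* (−2.09) and *acsl1* (−1.22). *acsl3* had too few counts in liver to be tested there and differed by −0.16 in skin, so its value rests on low liver counts. Of 29 lipoprotein genes 7 passed and of 21 triglyceride genes 7 passed.

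Skin levels were then set against the liver level of the same strain, to see whether each gene stood at the share of the liver-only genes. The median skin library held 0.591% of the mean liver level of *apob* in JpB and 0.295% in JpA. For *apoc1* it held 0.150% in JpB and 0.170% in JpA, and for *fabp2* 0.258% in JpB and 0.729% in JpA. The 16 liver-only genes, by their medians, held 0.00502% to 0.108% in JpB (median 0.0127%) and 0.00345% to 0.0823% in JpA (median 0.00975%). By these medians over all libraries, all 3 lipid transport genes stood above this range in both strains. They stood below the median of the other 9 hepatocyte genes (4.20% in JpB, 2.48% in JpA), as the plot of skin levels in percent of liver shows. Those 9 genes spanned 0.167% to 37.9% in JpB and 0.0573% to 7.12% in JpA. The lipid transport genes lay within these spans, apart from *apoc1* in JpB, which lay below. Single libraries of the fifth label year differed from the medians. In JpB skin 32, *apoc1* (0.205%) and *fabp2* (0.204%) lay under the highest liver-only gene (0.239%). So did *fabp2* in JpB skin 31 (0.210% against 0.277%) and *apoc1* in JpB skin 33 (0.200% against 0.223%). In JpB skin 30 *apoc1* (0.301%) and *fabp2* (0.263%) lay above it (0.237%). The liver-only genes were selected as lying below 0.1% of liver with both strains together, so their low place is set by that choice (in JpB alone, *tdo2* and *c8b* lay just above it).

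**Figure D4:**
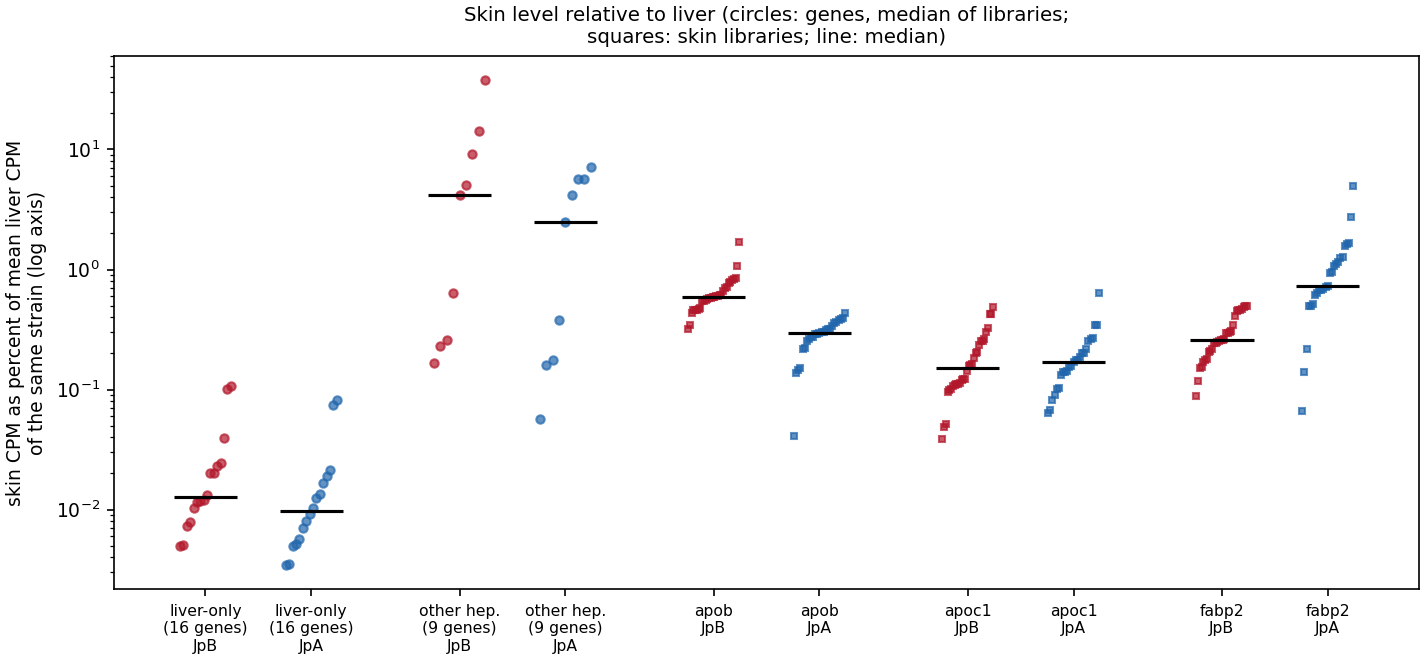
Skin level in percent of the mean liver level of the same strain (log axis), in JpB (left of each pair) and JpA (right), with lines at the medians. Circles are the library medians of the 16 liver-only and the 9 other hepatocyte genes, and squares are single libraries for *apob*, *apoc1* and *fabp2*. The medians of the lipid transport genes lie between 0.150% and 0.729%, and the liver-only genes between 0.00345% and 0.108%.

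From the median share of the liver-only genes, the level that the same share of liver RNA would give each gene was computed for every skin library. The shares of these genes differed within a library, as in JpB skin 32, with a median of 0.0981% and a highest share of 0.239%. The JpB livers behind the shares were all of the fifth label year, also for skin of other years. In JpB the computed level was 3.02% of the measured *apob* level in the median library (32.9% at the highest), 8.09% of *apoc1* (55.6%) and 4.53% of *fabp2* (93.6%). In JpA it was 3.79% of *apob* (25.9%), 6.66% of *apoc1* (31.4%) and 1.29% of *fabp2* (16.8%). The 4 JpB libraries of the fifth label year were high, at 16.7% to 24.0% of *apob*, 38.2% to 47.9% of *apoc1* and 37.5% to 93.6% of *fabp2*, against 0.837% to 5.38%, 1.40% to 8.27% and 0.148% to 3.18% in the 4 JpA libraries of the fifth label year. With this level taken away, the ratio of mean CPM over all libraries, JpB over JpA, was 1.86 for *apob* (1.87 before), 1.20 for *apoc1* (1.41 before) and 1.12 for *fabp2* (1.28 before).

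With the mean of the hepatocyte genes as a covariate over all skin samples, the *apob* difference was 0.93, that of *apoc1* was 0.09 (adjusted p = 0.80) and that of *fabp2* was 0.32. Without JpB skin 1, 17 and 31, the libraries with the highest sums of liver-only genes, *apob* differed by 0.92 and *apoc1* by 0.33 (adjusted p = 0.31). JpB skin 30, 32 and 33, with 69.4, 60.0 and 56.2 CPM of liver-only genes, stayed in that fit. The part of liver RNA in the *apob* difference was not tested.

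Across JpB skin samples, *apoc1* followed the mean log2 CPM of the hepatocyte genes (r = 0.78, permutation p = 1e-05, the smallest that 100000 permutations can give, adjusted p = 6e-05; rho = 0.73, permutation p = 7e-05, adjusted p = 0.00042; n = 26). Without JpB skin 1 and 31, the samples farthest from the median, r was 0.72 (permutation p = 4e-05). Within the 11 samples of the second label year it was 0.76 (permutation p = 0.0294), where rho was 0.28 (permutation p = 0.403). JpB skin 12 had both the highest *apoc1* (49.3 CPM) and the highest hepatocyte mean (1.61) of that year. Within the 6 samples of the third label year r was 0.86 (exact permutation p = 0.0472), where rho was 0.54 (exact permutation p = 0.297). Within neither year did rho have a p under 0.05. Against the log2 of the summed hepatocyte CPM in place of the mean, r of *apoc1* in JpB was 0.47 (permutation p = 0.0164, adjusted p = 0.044), 0.38 without the 2 farthest samples (permutation p = 0.0712), 0.07 within the second label year and 0.24 within the third, so that the relation depended on the measure. The other 5 of the 6 relations did not pass. For *apob* in JpB r was 0.01, for *fabp2* in JpB 0.15, for *apob* in JpA 0.37 (permutation p = 0.0714, adjusted p = 0.214), for *apoc1* in JpA 0.15 and for *fabp2* in JpA −0.12. The points share library depth and label year.

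Skin was also set against the liver that carries the same fish label. The labels do not state that these came from the same animal, and in JpA the liver and skin of a fish label carry different dates. JpA liver 2 and 3 are labelled 0 min, while JpA skin 23 and 25, paired with them, are labelled sham. In 7 pairs of libraries from 5 fish labels, skin held 0.173% to 0.900% of the level in the paired liver for *apob*, 0.0719% to 0.505% for *apoc1* and 0.0991% to 0.946% for *fabp2*.

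JpB skin from 4 label years was compared, and none of the 3 genes passed the threshold that 28.6% of genes passed. *apoc1* averaged 16.2 ± 11.2 CPM in the second label year, 21.6 ± 13.3 CPM in the third, 7.44 ± 3.34 CPM in the fourth and 28.6 ± 10.6 CPM in the fifth (SD, n = 11, 6, 4 and 4). It was lowest in the fourth year and highest in the fifth, a span of 1.98 on the log2 scale against a median of 0.62 over all genes (adjusted p = 0.0543, edgeR F test; 0.0193 by DESeq2; 0.0488 without JpB skin 3). *apob* averaged 4.43 ± 2.24, 3.51 ± 0.658, 2.70 ± 0.0920 and 3.78 ± 0.739 CPM in the same years (span 0.79, p = 0.0372, adjusted p = 0.0932). *fabp2* averaged 0.580 ± 0.303, 0.690 ± 0.281, 0.745 ± 0.234 and 0.541 ± 0.0659 CPM (span 0.43, adjusted p = 0.753). The single library of the first label year was not in the test and had 3.29 CPM of *apob* (95% Poisson interval 2.94 to 3.67), 33.3 CPM of *apoc1* (32.2 to 34.5) and 1.17 CPM of *fabp2* (0.968 to 1.41), with 112 CPM of liver-only genes. Label year went with age, date and read length. The liver-only genes had medians of 5.67, 14.8, 6.54 and 64.7 CPM in the libraries of the second, the third, the fourth and the fifth label year.

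JpA skin was compared at 13, 20 and 24 months (n = 4, 5 and 16), where 13.4% of genes passed and none of the 3 did. *fabp2* averaged 0.376 ± 0.328, 0.201 ± 0.109 and 0.676 ± 0.543 CPM at these ages (SD). The level at 20 months was the lowest, in libraries of which JpA skin 22 and 23 share a fish label, as do JpA skin 24 and 25. The span was 1.78 on the log2 scale, against a median of 0.47 over all genes (p = 0.0224, adjusted p = 0.102, edgeR; adjusted p = 0.0448 by DESeq2). *apob* averaged 1.60 ± 0.427, 2.29 ± 0.871 and 2.08 ± 0.622 CPM (adjusted p = 0.745), and *apoc1* averaged 9.61 ± 2.15, 10.5 ± 5.40 and 15.0 ± 9.62 CPM (adjusted p = 0.483). The fish of 13 months were the only JpA skin of the fifth label year, so that age and year cannot be told apart for them.

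The 16 JpA skin libraries of 24 months, with 2 libraries at each of 8 hours of the day, were tested for a 24 h rhythm with a cosine and a sine, which 2.27% of genes passed. *fabp2* had 0.575 and 0.340 CPM at hour 2, 0.630 and 0.355 CPM at hour 5, 0.473 and 0.246 CPM at hour 8, and 0.303 and 0.613 CPM at hour 11. Later in the day it had 0.771 and 0.464 CPM at hour 14, 2.46 and 0.528 CPM at hour 17, 1.35 and 0.810 CPM at hour 20, and 0.359 and 0.548 CPM at hour 23. The high values were those of hour 20 and of 1 of the 2 libraries at hour 17, as the plot by hour shows. The fitted peak was at hour 17.7 with a peak-to-trough difference of 1.90 on the log2 scale, against a median of 0.51 over all genes (p = 0.00837, adjusted p = 0.107, edgeR; adjusted p = 0.0289 by DESeq2). Without JpA skin 9, the high library of hour 17, the difference was 1.02 (adjusted p = 0.20), and without JpA skin 10 it was 2.13 (adjusted p = 0.0453). The peak-to-trough difference was 0.32 for *apob* (adjusted p = 0.781) and 0.50 for *apoc1* (adjusted p = 0.824). Of 19 triglyceride genes 2 passed, *soat1*, whose enzyme esterifies cholesterol (1.40, adjusted p = 0.0271), and the hormone-sensitive lipase gene *lipe* (1.06, adjusted p = 0.0343).

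**Figure D5:**
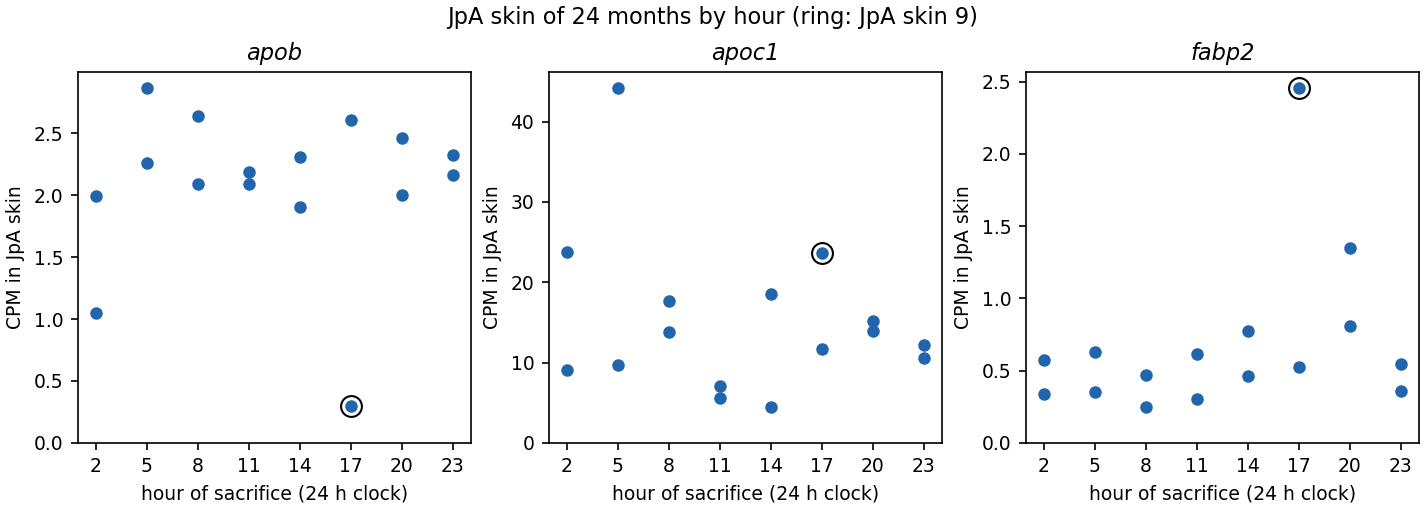
Levels of *apob*, *apoc1* and *fabp2* in the 16 JpA skin libraries of 24 months, in CPM, against the hour of sacrifice (2 libraries an hour), with a ring around JpA skin 9. *fabp2* reaches 2.46 CPM in 1 library at hour 17 and 1.35 and 0.810 CPM at hour 20, and stays at 0.246 to 0.771 CPM in the others.

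Other genes of lipid handling were called in both directions in skin too. The share called was 37.5% of lipoprotein genes, 41.7% of genes of fatty acid binding and activation, 21.1% of triglyceride genes and 27.8% of regulator genes, against 25.4% of all genes, so that those of triglyceride and regulator genes were near that of all genes. Of 24 lipoprotein genes, 6 were higher and 3 lower in JpB skin, led by *abcg5*, which encodes a sterol efflux transporter subunit (1.86, adjusted p = 5.42e-06), with *lipg* lower (−1.08, adjusted p = 0.00416). Of 12 genes of fatty acid binding and activation, 3 were higher, among them *acsl1* (0.50, adjusted p = 0.00226) and the retinol binding protein gene *rbp2* (0.65, adjusted p = 0.00483), and 2 were lower, *acsbg2* (−0.55, adjusted p = 0.0034) and *slc27a4* (−0.47, adjusted p = 0.0167). Of 19 triglyceride genes, 2 were higher, *gpat3* (0.84, adjusted p = 0.000485) and *dgat1* (0.51, adjusted p = 0.0148), and 2 were lower, *dgat2* (−0.86, adjusted p = 0.00215) and *fitm2* (−0.52, adjusted p = 0.0114). Of 18 regulator genes, 2 were higher, among them *ppara*, a nuclear receptor for fatty acids (0.61, adjusted p = 1.52e-05), and 3 were lower, the sterol-regulated transcription factor genes *srebf2* (−0.71, adjusted p = 3.29e-07) and *srebf1* (−0.52, adjusted p = 0.000991) and *nr2f1* (−0.42, adjusted p = 0.0145). Of 20 hepatocyte genes, 12 were higher and none was lower, with a median difference of 1.12.

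In skin of the fifth label year, 7 of 26 lipoprotein genes were higher in JpB and 2 were lower, against 12.8% of all genes called and 6.31% higher. Those with the smallest adjusted p were the hepatic lipase gene *lipc* (3.61, adjusted p = 0.0028), *mttp*, whose product loads lipid onto ApoB (1.47, adjusted p = 0.00651), *apom*, a carrier on HDL (3.38, adjusted p = 0.0143), and the endocytic receptor gene *lrp2* (1.66, adjusted p = 0.015). Of 20 triglyceride genes 4 were higher and 3 lower (35% called), and of 22 regulator genes 1 was higher and 1 lower (9.09%). The lipid droplet gene *cideb* (4.09, adjusted p = 0.0115) and the bile acid receptor gene *nr1h4* (3.95, adjusted p = 0.0113) were also higher, while the fatty acid synthase gene *fasn* (−1.44, adjusted p = 0.0143) was lower. Some levels were near the floor. The average log2 CPM was −1.99 for *apom* in these libraries, and −2.65 for *cideb* and −3.29 for *nr1h4* in the fit of JpB skin by year. These genes were measured in the libraries whose liver-only sums are given above, and the part of liver RNA in their levels was not tested.

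Genes whose skin levels varied most like each of the 3 were found from the mean of the correlations of log2 CPM within JpB (n = 26) and within JpA (n = 25), over the 9001 named genes that averaged 1 CPM or more. Among the 5 genes most like *apob* were *pald1* (mean r = 0.77), *ttyh3* (0.74), the ion cotransporter gene *slc12a2* (0.74) and *atad2b* (0.74). These values leaned on the libraries that stood apart. Without JpB skin 3 and JpA skin 9, r of *apob* was 0.63 in JpB and 0.39 in JpA with *pald1*, 0.57 and 0.36 with *ttyh3*, 0.66 and 0.30 with *slc12a2*, and 0.59 and 0.38 with *atad2b*. *apoc1* was most like the progranulin gene *grn* (0.58), *epb41l3* (0.57), the microfibril gene *mfap2* (0.55), *wdyhv1* (0.55) and the acid sphingomyelinase gene *smpd1* (0.54). Without the same libraries r of *apoc1* with *grn* was 0.71 in JpB and 0.52 in JpA. *fabp2* was most like *mfsd5* (0.67), *igsf5* (0.65), the lysosomal enzyme genes *hexb* (0.64) and *gla* (0.64), and the proteasome activator gene *psme2* (0.63). Without those libraries r of *fabp2* with *mfsd5* was 0.65 in JpB and 0.64 in JpA. The samples share depth and label year, and the values are a description.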

How the data were processed

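RNA of skin (55 libraries) and liver (10 libraries) was sequenced as paired ends after poly(A) library preparation. The authors trimmed the reads, mapped them to genome version 5.0 with TopHat2 and counted them on NCBI gene models with featureCounts. The versions and the strand setting are not given in the sources used here. The deposited table holds raw counts per gene and library and nothing else. A count of a gene can include reads of overlapping genes.

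From the counts, edgeR 4.0.16 in R 4.3.3 was used (filterByExpr with a minimum count of 10, TMM scaling, glmQLFit and glmQLFTest), with Benjamini-Hochberg adjustment over all genes tested and calls at an adjusted p under 0.05. DESeq2 1.42.0 was an alternative. CPM in the text are counts divided by the library total, without TMM factors. Depth sets the precision, since 1 count is worth more CPM in a smaller library. Skin libraries that share a fish label were added together when a chi-square test of their counts, divided by its degrees of freedom, gave less than 3 (genes with 50 or more counts between them). Genes named besides *apob*, *apoc1* and *fabp2* were, from each list, up to 4 with the smallest adjusted p in a comparison and, for each of the 3, the 5 most alike in skin, of which 1 is not reported here. The 3 genes and the lists were chosen with earlier results of these data known. RefSeq's table for X_maculatus-5.0-male gave the symbols and positions, and its gene spans include introns, so levels were not compared between genes. On simulated data, edgeR recovered 68% of genes changed by 2 on the log2 scale in the liver comparison (15% of those changed by 1, 16601 genes), 99% and 87% in the skin comparison (19874 genes), and 79% and 15% in the test by hour (18183 genes). The simulated skin comparison treated all 55 libraries as independent samples, where the test used 51 samples, some of which share a fish label. Correlations used scipy 1.17.1.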

Additional observations from a re-analysis of the deposited data

Results flagged for a closer look

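The strain difference of *fabp2*, the intestinal fatty acid binding protein gene, was not the same in liver and in skin. It was larger in liver by 2.41 on the log2 scale (SE 0.55; edgeR's test of tissue by strain, adjusted p = 0.00137), at 2.58 in liver and 0.28 in skin. Without each liver in turn it was larger by 2.22 to 2.66 (adjusted p 0.000617 to 0.00621), and the lowest value under all 14 alternatives was 1.96. The skin difference was larger and passed the threshold without JpA skin 9, as given above. All 4 JpB livers lay above all 6 JpA livers, while the skin samples of the strains overlapped. The liver samples of the strains also differ in age and date, and liver and skin of the same fish label were treated as independent. In 21 sets of 4 to 6 samples tested for a single outlying value of *apob*, *apoc1* or *fabp2*, none was found, where chance gives about 1 in 20. The larger groups that hold JpB skin 3 and JpA skin 9 were not tested.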

How the results depend on the processing

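Of 495 values of *apob*, *apoc1* and *fabp2* under other settings, 456 kept their direction and their side of the threshold. In liver, *apob* turned to −0.28 without scaling and to −0.25 with livers of the fifth label year only, and it was −0.046 to 0.13 without each liver in turn, with no call under any of them. In skin over all years, *apoc1* passed at 0.65 without JpA skin 9 and at 0.68 without JpA skin 9 and JpB skin 3, and *fabp2* at 0.59 and 0.60. In the fourth and the fifth label year with year as covariate, *apoc1* was lowest, at 0.06 (adjusted p = 0.943), and so was *apob*, at 0.65 (adjusted p = 0.0400). In skin of the fifth label year, *apob* did not pass with either covariate of liver genes (1.59 and 1.57), nor without JpB skin 31 (0.91), and without each library in turn it was 0.91 to 1.21. *apoc1* did not pass with the covariates (0.71 and 0.77). In skin of the fourth label year, *fabp2* passed against JpA of 20 months only (1.84). For the change between years, *apoc1* passed with DESeq2 (2.36), and *fabp2* was −0.29 to 0.78 without each library in turn. *apob* passed the test of tissue by strain without scaling (−1.18) and with DESeq2 (−0.85). Across JpB years, *apoc1* passed without scaling (1.95), with DESeq2 (1.98), with the hepatocyte and liver-only covariates (1.32 and 1.32) and without JpB skin 3 (1.98). Across JpA ages and hours, *fabp2* passed with DESeq2 (1.81 and 1.90), and by hour it spanned 1.02 to 2.21 without each library in turn. Against the log2 of the summed hepatocyte CPM, which a few abundant genes dominate, r was −0.13 for *apob* in JpB, 0.47 for *apoc1* in JpB (0.78 against the mean), −0.47 for *fabp2* in JpB (adjusted p = 0.044), −0.17 for *apoc1* in JpA and −0.45 for *fabp2* in JpA (adjusted p = 0.044). The cause was not tested.

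Title numbers shared by the strains did not pair the samples: correlations of deviations were −0.252 to 0.169 over 4 liver numbers, and in skin 1 of 18 numbers correlated best with its own. With the replicate block, *fabp2* in liver differed by 2.70 (adjusted p = 0.047), *apoc1* by 1.28 and *apob* by 0.26, with 87 genes called over the table against 1488. In skin the block gave 0.77 for *apoc1* (adjusted p = 0.0239), 0.92 for *apob* and 0.65 for *fabp2*, against 0.92, 0.97 and 0.52 in the same samples without it, with 3357 genes called against 5093 over all samples. A block for fish label in liver over skin changed no call.

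Counts of genes called over the whole table moved by over 1.5 times as follows. In liver (1488) DESeq2 called 3195, livers of the fifth label year gave 4035 and leaving out each liver gave 238 to 2129. In skin the fourth and the fifth label year together with year as covariate gave 2570. In skin of the fifth label year (2666) DESeq2 called 4660, the covariates 3 and 2, the fit without JpB skin 31 called 877, and leaving out each library gave 851 to 3531. In skin of the fourth label year (785) the counts were 2013 with DESeq2 and 172 to 474 without each JpB library. For the change between years (272) they were 944 with DESeq2, 145 without scaling, 0 with either covariate and 2 to 318 without each library. For tissue by strain (4325) they were 2505 to 4758 without each liver. For JpA age (2747) they were 4165 with DESeq2 and 4264 without JpA skin 9. By hour (416) they were 2043 with DESeq2, 189 to 1732 without each library and 111 to 3491 without each hour. No library had over 10 times the median summed hepatocyte CPM, so the planned fit without such libraries gave no value. The covariates of liver genes, the fits without JpA skin 9 or JpB skin 3 and the liver-only genes were chosen after seeing the data, apart from the hepatocyte covariate. Depth limits *fabp2* in skin, with as few as 2 counts in a library.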
